A study of Rattus norvegicus with 12 samples.

Results

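The P2X and P2Y receptors are the cell-surface receptors for extracellular ATP and other nucleotides. The genes described here were 10 members of the family, chosen by name: 6 P2X genes (P2rx2, P2rx3, P2rx4, P2rx5, P2rx6 and P2rx7) and 4 P2Y genes (P2ry1, P2ry2, P2ry12 and P2ry14). They are 10 of the 20848 genes tested. P2X receptors are ATP-gated cation channels built from 3 subunits, and P2Y receptors are G protein-coupled receptors for adenine or uracil nucleotides. In sensory ganglia ATP released by damaged or stretched tissue opens P2X channels on sensory neurons, while satellite glia, Schwann cells and macrophages carry other members. The L6 dorsal root ganglion holds cell bodies of sensory neurons that serve the hindlimb and the pelvic organs.

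Total RNA of L6 dorsal root ganglia from male rats of the inbred Fischer 344 strain was hybridised to 12 one-colour Agilent arrays, 4 in each of 3 groups. The old_CR rats were 25 to 28 months old and had been restricted from 6 weeks of age, with food given on 3 days a week for a 40% restriction of calories. The old_AL rats had the same age of 25 to 28 months with free access to food, as had the young_AL rats at 6 months. The age comparison was old_AL against young_AL, the comparison of diets among old rats was old_CR against old_AL, and age and diet both differed in old_CR against young_AL. These comparisons share arrays, so their values are set side by side and not against each other. The labels give no genetic modification for any group.

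The array old_AL 1 differed in quality from the other 11, with a 75th percentile of intensity of 7662, against 2634 to 3110, and with 4026 spots of uneven signal, against 1 to 208. All tests below were made on the other 11 arrays, so old_AL has 3 arrays, and the values of old_AL 1 are given beside them. Among the 11, old_AL 4 had the narrowest spread of intensities, with a 75th percentile 34.5 times the 25th, against 60.5 to 72.8 times on the other 10. All old arrays lay on slide 1 and all young_AL arrays on slide 2, and slide and age therefore cannot be told apart. The old_AL arrays lay in row 1 of their slide and the old_CR arrays in row 2, so diet and row cannot be told apart either. The young_AL arrays lay in row 2 of slide 2, so old_AL against young_AL differed in row as well as in slide and age.

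The tissue label was checked against defining markers. All 6 measured sensory neuron markers and all 8 nociceptor markers were well above background on all 11 arrays, and the mean of the nociceptor list lay between 3.24 and 3.33 in old_CR, 3.28 and 3.39 in old_AL and 3.29 and 3.35 in young_AL (log2 relative to the array's 75th percentile). Single neuron markers passed the test beside these flat means: Mrgprd fell by 0.42 and Isl1 by 0.19 on the log2 scale in old_AL against young_AL (limma adjusted p = 0.0481 and 0.0471), and Isl1 rose by 0.31 in old_CR against old_AL (limma adjusted p = 0.0317). Of the 6 large-diameter neuron markers, 3 were called lower in old_AL against young_AL (Nefh, Nefl and Pvalb), where 1.14% of all genes were called lower. Of the central glia markers, Olig2 was well above background on 0 of the 11 arrays, Sall1 on 1, Mog on 2, and Tmem119 and Gfap on all 11. The 12 macrophage markers were all well above background on all 11 arrays, and their mean log2 lay between −1.22 and −0.76 in old_CR, −0.85 and −0.44 in old_AL and −1.74 and −1.24 in young_AL. In bulk tissue, fewer cells of a type and less RNA per cell cannot be told apart.

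No receptor gene passed an adjusted p of 0.05 in any comparison. In old_AL against young_AL, limma called 0 of the 10, where it called 2.99% of all genes tested. In old_CR against old_AL it called 0 of 10 (1.06% of all genes), and in old_CR against young_AL 0 of 10 (2.32% of all genes). At an unadjusted p under 0.05, 1 of 10 passed in old_AL against young_AL (23% of all genes), 4 of 10 in old_CR against old_AL (26.3%) and 3 of 10 in old_CR against young_AL (18.3%). All 10 receptors were nevertheless measured: each was well above background on all 11 arrays, and none was saturated. The intervals of their differences were widest for P2ry14, P2rx5 and P2rx7, whose probes were dim, and for P2ry12, whose probe was not.

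**Figure D1:**
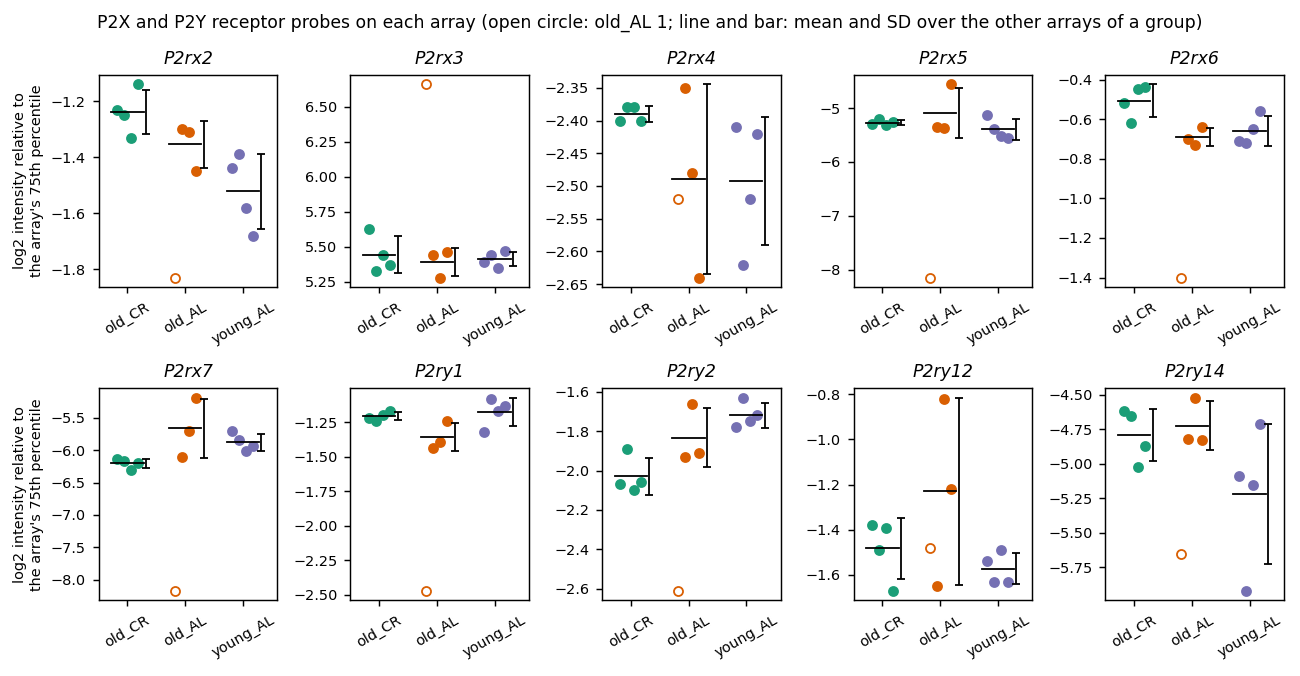
Each panel plots 1 receptor gene, with the log2 intensity relative to the array's 75th percentile on its own vertical scale and the groups old_CR, old_AL and young_AL along the horizontal axis. Filled points are the 11 arrays tested, the open circle is old_AL 1, and the line and bar are the mean and SD of a group without old_AL 1. P2rx3 lay between 5.28 and 5.63 on the 11 arrays, against 6.66 on old_AL 1, and P2rx6 was higher on all 4 old_CR arrays than on the 3 filled old_AL arrays.

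P2rx3 encodes the P2X3 subunit, the ATP-gated channel of nociceptive sensory neurons. Its log2 intensity was 5.63, 5.33, 5.44 and 5.37 on the old_CR arrays, 5.44, 5.28 and 5.46 on the old_AL arrays and 5.39, 5.44, 5.35 and 5.47 on the young_AL arrays. The 3 groups overlapped throughout, and their means were 5.44 ± 0.13, 5.39 ± 0.10 and 5.41 ± 0.05 (SD, n = 4, 3 and 4). The difference of old_AL against young_AL was −0.02 with a 95% interval of −0.186 to 0.147, and that of old_CR against old_AL was 0.05 with an interval of −0.115 to 0.219. In old_CR against young_AL it was 0.03, with an interval of −0.122 to 0.187, so that a change of over 0.22 on the log2 scale lay outside the interval in all 3 comparisons. On old_AL 1 the probe read 6.66, above every other array.

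P2rx2 encodes the P2X2 subunit, which forms channels of its own and joins P2X3 in the P2X2/3 channel of sensory neurons. Its log2 intensity was −1.23, −1.25, −1.33 and −1.14 on the old_CR arrays, −1.30, −1.31 and −1.45 on the old_AL arrays and −1.44, −1.39, −1.58 and −1.68 on the young_AL arrays. All 4 old_CR arrays were above all 4 young_AL arrays, and old_AL overlapped both groups. The difference of old_CR against young_AL was 0.29 ± 0.07 (SE), a 1.22-fold higher level with an interval of 0.126 to 0.448 and a limma adjusted p of 0.0704. A second probe of P2rx2, present as 1 spot an array against 10 spots of the first, gave 0.35 in the same comparison (limma adjusted p = 0.0814). In old_AL against young_AL the first probe gave 0.17, with an interval of −0.003 to 0.345, and in old_CR against old_AL it gave 0.12, with an interval of −0.058 to 0.29 (0.067 without old_AL 4). The call in old_CR against young_AL changed with the fit: the adjusted p was 0.0496 with an intensity trend and 0.0156 with array weights. The value on old_AL 1 was −1.83, below every other array.

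P2rx6 encodes the P2X6 subunit, which forms few channels by itself and joins P2X2 or P2X4. On the old_CR arrays its log2 intensity was −0.52, −0.62, −0.45 and −0.44, against −0.70, −0.73 and −0.64 on the old_AL arrays and −0.71, −0.72, −0.65 and −0.56 on the young_AL arrays. Every old_CR array was above every old_AL array, while old_CR and young_AL overlapped. The difference of old_CR against old_AL was 0.19 ± 0.06 (SE), 1.14-fold, with an interval of 0.059 to 0.313, a p of 0.00867 and a limma adjusted p of 0.0955. It was 0.15 in old_CR against young_AL (limma adjusted p = 0.161) and −0.03 in old_AL against young_AL (limma adjusted p = 0.742). With array medians set equal, the diet difference was 0.28 and its adjusted p 0.036, and with array weights the adjusted p was 0.0349. The reading on old_AL 1 was −1.40, below all the others.

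P2rx7 encodes the P2X7 receptor, which opens at high ATP and is known for its part in the release of interleukin-1 beta from macrophages and in satellite glia. The log2 intensity was −6.14, −6.17, −6.31 and −6.20 on the old_CR arrays, −6.11, −5.70 and −5.19 on the old_AL arrays and −5.71, −5.85, −6.01 and −5.94 on the young_AL arrays. The 4 old_CR arrays lay below every array of both other groups, narrowly so in the case of old_AL 2, and old_AL 4 was the highest array of all. Between the old_CR and the old_AL arrays the difference was −0.54 ± 0.18 (SE), 0.687-fold, with an interval of −0.938 to −0.145 and a limma adjusted p of 0.11. In old_CR against young_AL it was −0.33, with an interval of −0.695 to 0.039, and in old_AL against young_AL it was 0.21, with an interval of −0.183 to 0.61. This was a dim probe, with processed intensities of 34.39 to 75.08 and a median coefficient of variation of 14.6% among its 10 spots. Without old_AL 4, the array with the narrowest spread of intensities, the difference of old_CR against old_AL was −0.30 and that of old_AL against young_AL −0.03. Without old_AL 2 the diet difference was −0.76 and its limma adjusted p 0.0356. With quantile normalization, which gives all arrays the same spread, the diet difference was −0.05 and the age difference −0.24. With normexp background correction the diet difference was −0.395 and the age difference 0.277 (limma adjusted p = 0.0121 and 0.0466). With array weights the diet difference was −0.457 and the age difference 0.164 (limma adjusted p = 0.0371 and 0.421). The part of the spread of intensities in the P2rx7 values was not tested. On old_AL 1 the probe was not well above background.

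P2rx4 encodes the P2X4 channel, found in microglia and macrophages and in many neurons. Its log2 intensity lay between −2.40 and −2.38 in old_CR, −2.64 and −2.35 in old_AL and −2.62 and −2.41 in young_AL. All 4 old_CR arrays were just above all 4 young_AL arrays, but the difference of 0.10 had an interval of −0.049 to 0.251 (limma adjusted p = 0.476) and was 0.057 without young_AL 2. In the RefSeq table of the assembly GRCr8, P2rx4 and P2rx7 lie with 0 protein-coding genes between them. P2rx5, the gene of the P2X5 channel subunit, had a dim probe, with log2 intensities of −5.32 to −5.21 in old_CR, −5.37 to −4.56 in old_AL and −5.56 to −5.13 in young_AL. Its highest array, like that of P2rx7, was old_AL 4, and the difference of old_AL against young_AL was 0.30 with that array and 0.03 without it. The difference of old_CR against old_AL was −0.17, with an interval of −0.586 to 0.247, and 0.097 without old_AL 4. On old_AL 1 the P2rx5 probe was not well above background.

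P2ry1 encodes an ADP receptor coupled to Gq, found on sensory neurons. Its log2 intensity was −1.22, −1.24, −1.20 and −1.17 on the old_CR arrays, −1.44, −1.39 and −1.24 on the old_AL arrays and −1.32, −1.08, −1.17 and −1.13 on the young_AL arrays. The old_CR arrays were all above the old_AL arrays, with old_CR 2 and old_AL 4 level to the second decimal, and old_AL overlapped young_AL. The difference of old_AL against young_AL was −0.18 ± 0.06 (SE), with an interval of −0.328 to −0.038, a p of 0.0187 and a limma adjusted p of 0.14. For old_CR against old_AL it was 0.15, with an interval of 0.004 to 0.294 (limma adjusted p = 0.182), and in old_CR against young_AL it was −0.03, with an interval of −0.169 to 0.1. With array medians set equal, the age difference was −0.28 and its limma adjusted p 0.0317, and with array weights the adjusted p was 0.0443 with age and 0.0477 with diet.

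P2ry2 encodes a Gq-coupled receptor for ATP and UTP, found on sensory neurons and other cells. On the old_CR arrays its log2 intensity was −2.07, −1.89, −2.10 and −2.06, against −1.93, −1.66 and −1.91 on the old_AL arrays and −1.78, −1.63, −1.75 and −1.72 on the young_AL arrays. The old_CR arrays were all below the young_AL arrays, and old_AL overlapped both. The difference of old_CR against young_AL was −0.31 ± 0.07 (SE), 0.807-fold, with an interval of −0.47 to −0.149, a p of 0.00169 and a limma adjusted p of 0.0585, the smallest among the 10 receptors. Set against old_AL, old_CR differed by −0.20, with an interval of −0.369 to −0.022 (limma adjusted p = 0.155), and by −0.11 without old_AL 3. The array old_AL 1 read −2.61, below every other array. With old_AL 1 in the fit, the difference of old_CR against old_AL was −0.001, with an interval of −0.382 to 0.38. In that fit old_CR against young_AL gave −0.31 again, with a wider interval of −0.691 to 0.071. Between old_AL and young_AL the difference was −0.12, with an interval of −0.288 to 0.059, and ran from −0.201 to −0.064 with an array left out. The call in old_CR against young_AL depended on the fit, with 4 of 11 other processing settings below 0.05 and a range of adjusted p of 0.0217 to 0.155. Leaving out an array gave 0.0349 to 0.151, and the adjusted p was below 0.05 without old_AL 3 or without old_AL 4, neither of which is in that comparison.

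P2ry12 encodes a Gi-coupled ADP receptor of platelets and of microglia in the brain, and P2ry14 a Gi-coupled receptor for UDP-glucose and other UDP-sugars. The log2 intensity of P2ry12 was −1.38, −1.49, −1.39 and −1.67 on the old_CR arrays, −1.65, −0.82 and −1.22 on the old_AL arrays and −1.54, −1.63, −1.49 and −1.63 on the young_AL arrays. The array old_AL 3 was the highest and old_AL 2 among the lowest, so the old_AL group spanned nearly the whole range. The difference of old_AL against young_AL was 0.34, with an interval of −0.022 to 0.704 and a limma adjusted p of 0.241. It was 0.14 without old_AL 3 and 0.55 without old_AL 2. For old_CR against old_AL it was −0.25, with an interval of −0.616 to 0.109, and −0.05 without old_AL 3. The P2ry14 log2 intensity was −4.62, −4.65, −5.02 and −4.87 in old_CR, −4.82, −4.52 and −4.83 in old_AL and −5.09, −5.92, −5.15 and −4.71 in young_AL. The array young_AL 2 was the lowest, young_AL 4 lay among the old arrays, and the groups overlapped. The difference in P2ry14 was 0.49 in old_AL against young_AL (interval −0.057 to 1.04), 0.43 in old_CR against young_AL (interval −0.082 to 0.934) and −0.07 in old_CR against old_AL (interval −0.613 to 0.484). Without young_AL 2 the first of these was 0.26 and the second 0.19, and with an array left out the third ran from −0.122 to 0.036. On old_AL 1 the P2ry14 probe read −5.65, and with that array in the fit the first was 0.259 and the third 0.167.

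**Figure D2:**
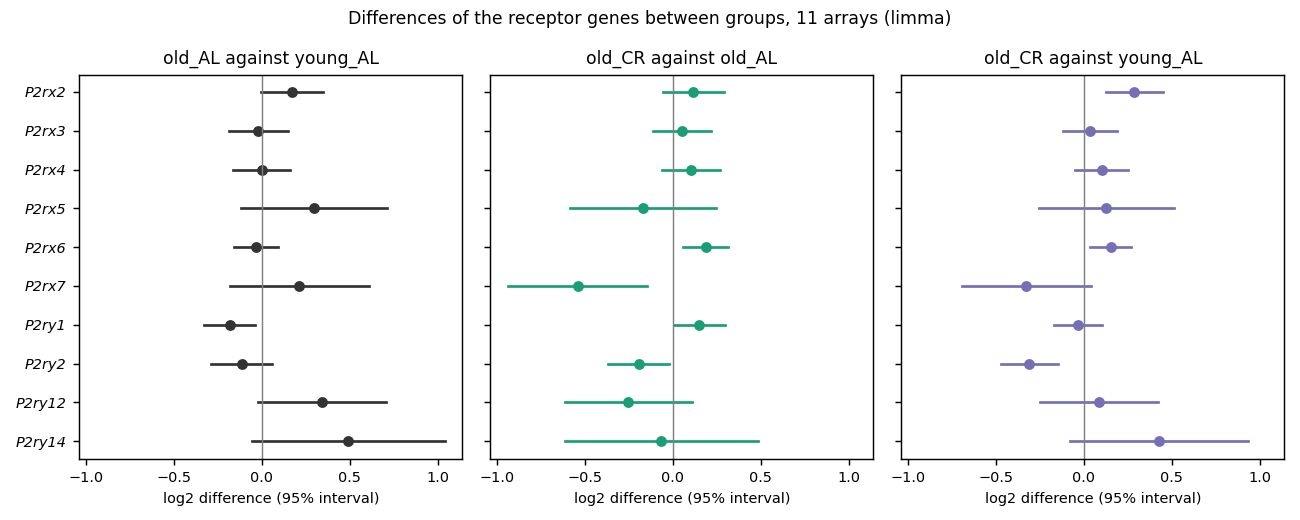
Points are the log2 differences of the 10 receptor genes and lines their 95% intervals from limma on 11 arrays, with 1 panel for each comparison and a vertical line at 0. The intervals that did not hold 0 were those of P2ry1 in old_AL against young_AL, of P2rx6, P2rx7, P2ry1 and P2ry2 in old_CR against old_AL, and of P2rx2, P2rx6 and P2ry2 in old_CR against young_AL. Those of P2rx3 lay between −0.186 and 0.219 in all panels.

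Seen as a family, the receptors followed no common direction. In old_AL against young_AL 5 of the 10 differences were positive and 5 negative, with a median of 0.09, against 0.04 over all genes tested. In old_CR against old_AL 5 were positive and 5 negative, with a median of −0.006, against −0.06 over all genes, and in old_CR against young_AL 7 were positive and 3 negative, with a median of 0.09, against −0.02. The groups were free of overlap for 0 of 10 receptors in old_AL against young_AL, against 19.5% of all genes (11.9% higher and 7.56% lower). They were so for 3 of 10 in old_CR against old_AL, where 23.4% of all genes were: P2rx6 and P2ry1 were higher (8.04% of all genes) and P2rx7 lower (15.3%). In old_CR against young_AL 4 of 10 were so, where 15.9% of all genes were: P2rx2 and P2rx4 were higher (5.56%) and P2rx7 and P2ry2 lower (10.3%). The median SE of the receptors, 0.08 in old_CR against old_AL, was that of all genes tested, 0.08. P2rx5, P2rx7, P2ry12 and P2ry14 had larger SEs in that comparison, of 0.185 (P2rx5), 0.18 (P2rx7), 0.16 (P2ry12) and 0.24 (P2ry14).

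Promoter sequence is shown for the receptors with the smallest p in each comparison that involves old_CR and that have a window in the RefSeq table of the assembly GRCr8: P2rx6 and P2rx7 in old_CR against old_AL, and P2ry2 in old_CR against young_AL. In all, 7 of the 10 receptors have a window there. Each run gives the 250 bases before the annotated start, 5′ to 3′ on the gene's strand, and capitals mark every GGGCGG, the letters of a GC box, or its reverse complement CCGCCC.
P2rx6 (GRCr8 chr11:96954204-96954453, minus strand): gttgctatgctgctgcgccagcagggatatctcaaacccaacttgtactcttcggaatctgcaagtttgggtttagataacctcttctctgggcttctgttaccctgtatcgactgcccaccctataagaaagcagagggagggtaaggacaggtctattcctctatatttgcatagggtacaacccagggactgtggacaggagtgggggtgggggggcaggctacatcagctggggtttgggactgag
P2rx7 (GRCr8 chr12:39594923-39595172, minus strand): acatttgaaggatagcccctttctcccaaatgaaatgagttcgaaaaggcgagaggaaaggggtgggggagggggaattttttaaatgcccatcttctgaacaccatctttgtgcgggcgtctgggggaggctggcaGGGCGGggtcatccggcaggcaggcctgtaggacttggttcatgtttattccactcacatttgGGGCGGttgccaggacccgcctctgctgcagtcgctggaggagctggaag
P2ry2 (GRCr8 chr1:164779489-164779738, minus strand): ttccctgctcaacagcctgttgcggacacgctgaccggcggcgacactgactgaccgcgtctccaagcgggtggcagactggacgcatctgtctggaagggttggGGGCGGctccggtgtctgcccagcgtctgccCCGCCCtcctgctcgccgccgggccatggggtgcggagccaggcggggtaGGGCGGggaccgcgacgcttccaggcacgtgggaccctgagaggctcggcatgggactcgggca

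Of the windows shown, that of P2rx6 holds 0 such matches, that of P2rx7 holds 2 and that of P2ry2 holds 3. Of these 3, 1 is on the opposite strand. The window of P2ry1, not shown, also holds 2. A link between the matches and the direction of a receptor's difference was not tested. GGGCGG was found on either strand in 30.5% of the 33469 windows of this length in the table, and in 4 of the 8 windows of the receptors (P2rx3 has 2 windows). CCAAT, found in 34% of all windows, and TATAAA, found in 12.9%, were searched on both strands and occur in none of the 3 runs shown. A match describes the letters and is not evidence of a bound factor, and its absence says only that these letters are not in the window.

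Some lists of markers of other cells also differed between the groups. The mean log2 of the 12 macrophage markers was −0.76, −0.99, −1.22 and −1.13 on the old_CR arrays, −0.44, −0.49 and −0.85 on the old_AL arrays and −1.24, −1.74, −1.37 and −1.32 on the young_AL arrays, and −0.94 on old_AL 1. The summed linear level of the list was 25.5 to 40.0 in old_CR, 33.4 to 45.3 in old_AL and 23.5 to 36.4 in young_AL, in units of each array's 75th percentile. Of the 12, limma called 2 higher and 0 lower in old_AL against young_AL, where it called 1.85% of all genes higher and 1.14% lower (Cd163 by 1.81 and Mrc1 by 1.13 on the log2 scale, both macrophage scavenger or mannose receptors), and 0 in each of the other comparisons. The median difference of the list was 0.75 in old_AL against young_AL and −0.44 in old_CR against old_AL. P2ry12 was highest on old_AL 3 and near its lowest on old_AL 2, which had the highest macrophage mean. P2ry14 was lowest on young_AL 2, the array with the lowest macrophage mean. P2rx7 was lower on all old_CR arrays than on the young_AL arrays, while the macrophage mean was higher in old_CR than in young_AL on every array pair. The satellite glia list had a median difference of −0.27 in old_CR against old_AL and the platelet list −0.14, against −0.06 over all genes. Of the 6 satellite glia markers, 1 was called lower there (0.806% of all genes), the glutamate transporter gene Slc1a3, by 0.37. In old_CR against young_AL the satellite glia median was −0.38, against −0.02 over all genes, with 2 of 6 called lower (Fabp7 and Slc1a3), against 1.57% of all genes. The mean of the list was lower on every old_CR array (−1.37 to −1.28) than on every young_AL array (−1.21 to −1.0). Of single genes, 10.3% were lower without overlap in that comparison. The T and NK cell list lay between −5.27 and −4.34 in old_CR, −4.10 and −3.39 in old_AL and −5.53 and −5.14 in young_AL. Its median difference was 1.47 in old_AL against young_AL, where Cd8a was called higher by 2.21 (limma adjusted p = 0.0197), and −1.0 in old_CR against old_AL, where 0 of 7 were called. The erythroid list lay between 0.57 and 1.13 in old_CR, 0.95 and 2.49 in old_AL and 0.14 and 1.15 in young_AL. Its median difference was 0.94 in old_AL against young_AL and −0.66 in old_CR against old_AL, with 0 of 4 called in each. The array old_AL 2 was highest for the erythroid list, at 2.49, and for the T and NK cell list, at −3.39. The part of these cells, or of blood left in the tissue, in the receptor values was not tested.

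**Figure D3:**
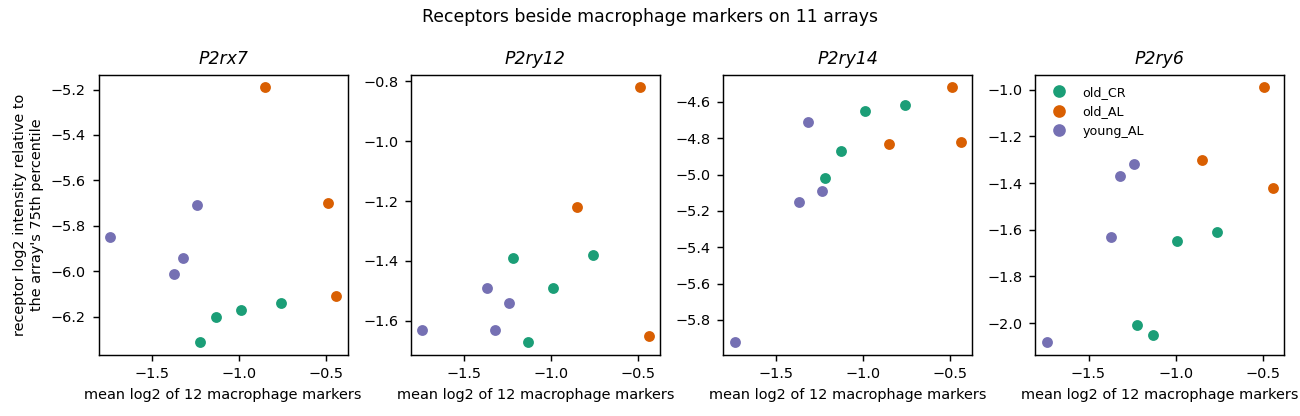
Each point is 1 of the 11 arrays, with the mean log2 of 12 macrophage markers on the horizontal axis and the log2 intensity of P2rx7, P2ry12, P2ry14 or P2ry6 on the vertical axis, both relative to the array's 75th percentile. The 3 old_AL arrays lie between −0.85 and −0.44 on the horizontal axis, with old_CR 1 among them at −0.76, and the old_CR arrays lie lowest for P2rx7, between −6.31 and −6.14.

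The other P2 receptors on the array were set beside the members. P2ry6, a receptor for UDP found on macrophages, had log2 intensities of −1.61, −1.65, −2.01 and −2.05 in old_CR, −1.42, −0.99 and −1.30 in old_AL and −1.32, −2.08, −1.63 and −1.37 in young_AL. All 4 old_CR arrays were below the 3 old_AL arrays, and young_AL spanned both. The difference of old_CR against old_AL was −0.60 ± 0.20 (SE), with a limma adjusted p of 0.114 and a range of 0.0362 to 0.147 over 11 other settings. P2ry13, an ADP receptor, was well above background on 9 of 11 arrays. Its difference was 0.75 ± 0.34 (SE) in old_AL against young_AL (limma adjusted p = 0.23) and −0.45 in old_CR against old_AL (limma adjusted p = 0.411). Without old_AL 4 these were 0.46 and −0.17, and with quantile normalization 0.14 and 0.195. With normexp background correction both passed, at an adjusted p of 0.0243 with age and 0.0304 with diet. P2ry4, a receptor for UTP, was well above background on 2 old_CR, 0 old_AL and 2 young_AL arrays, so no difference against old_AL is given, and its difference of 0.40 in old_CR against young_AL had a limma adjusted p of 0.511. P2rx1 and P2ry10 were well above background on 2 arrays at most and were not tested.

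The list of other purinergic genes held these P2 receptors, the adenosine receptors, and genes of ectonucleotidases, ATP release and adenosine handling, and 30 of the 37 listed genes passed the filter on dim probes. In old_AL against young_AL limma called 1 of the 30 higher and 0 lower (1.85% and 1.14% of all genes), and 10 at an unadjusted p under 0.05 (23%). It called 0 of 30 in either direction in old_CR against old_AL (0.259% and 0.806%), and 5 unadjusted (26.3%). In old_CR against young_AL it called 2 higher and 0 lower (0.753% and 1.57%), and 9 unadjusted (18.3%). The 2 genes were Enpp2 and Adora2b. Enpp2 encodes autotaxin, which belongs to the ectonucleotidase family by sequence and is known chiefly for making lysophosphatidic acid rather than for cleaving ATP. Its log2 intensity was −0.84, −0.81, −0.62 and −0.69 on the old_CR arrays, −0.89, −0.84 and −0.88 on the old_AL arrays and −1.06, −1.12, −1.20 and −1.17 on the young_AL arrays. Every old array among the 11 was above every young_AL array. Of all genes, 11.9% were higher without overlap in old_AL against young_AL and 5.56% in old_CR against young_AL. Enpp2 rose by 0.27 ± 0.06 (SE) in old_AL against young_AL, with an interval of 0.138 to 0.399 and a limma adjusted p of 0.0454, and by 0.40 ± 0.05 in old_CR against young_AL, with a limma adjusted p of 0.013. The age call in old_AL held in 1 of 11 fits that left out an array, where its adjusted p was 0.043 to 0.115, and with old_AL 1, at −2.86, the difference was −0.23. It held in 7 of 11 other settings, and the call in old_CR against young_AL in 10 of 11, with adjusted p of 0.00346 to 0.0891, but not on 12 arrays (adjusted p = 1).

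Adora2b encodes the low-affinity adenosine A2B receptor. Its log2 intensity was −1.08, −1.16, −1.0 and −0.92 on the old_CR arrays, −1.07, −1.21 and −1.19 on the old_AL arrays and −1.54, −1.38, −1.28 and −1.34 on the young_AL arrays. The old arrays among the 11 were all above the young_AL arrays, and old_AL 1 had no value. Of all genes, 11.9% were higher without overlap in old_AL against young_AL and 5.56% in old_CR against young_AL. Adora2b rose by 0.34 ± 0.07 (SE) in old_CR against young_AL, with an interval of 0.185 to 0.504 and a limma adjusted p of 0.0411. The call held in 3 of 11 fits that left out an array and in 8 of 11 other settings. It did not hold on 12 arrays (adjusted p = 0.919), where the difference was again 0.34. In old_AL against young_AL its difference was 0.23 (limma adjusted p = 0.125). The 30 genes had a median difference of 0.11 in old_AL against young_AL, −0.07 in old_CR against old_AL and −0.03 in old_CR against young_AL.

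**Figure D4:**
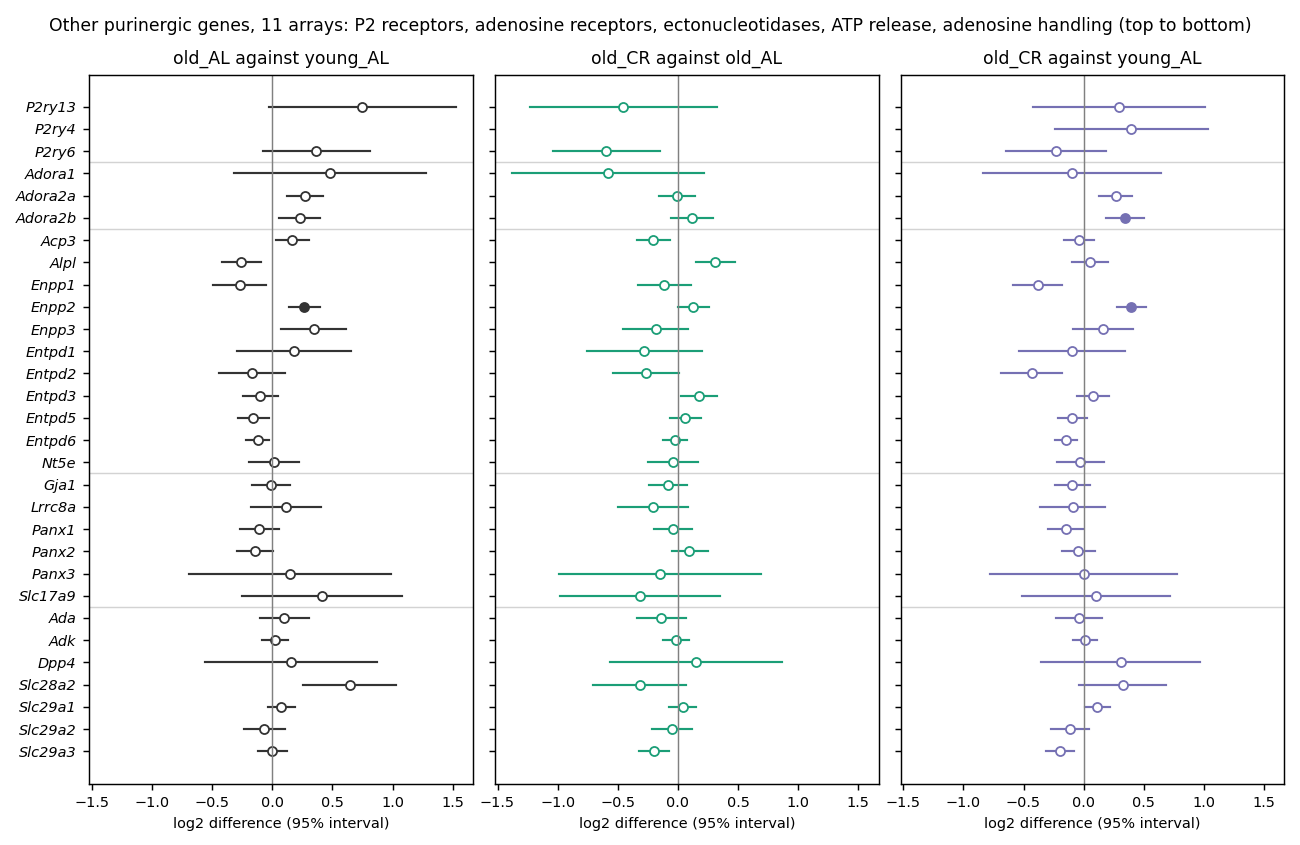
Points are log2 differences of the other purinergic genes on 11 arrays and lines their 95% intervals, with 1 panel for each comparison, and genes run down the page by role from P2 receptors to adenosine handling. Filled points passed a limma adjusted p of 0.05: Enpp2 in old_AL against young_AL and in old_CR against young_AL, and Adora2b in old_CR against young_AL. P2ry4 is drawn in old_CR against young_AL alone.

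For each receptor the 3 genes whose log2 values ran most like it across the 11 arrays were found by Pearson's r among 11547 genes well above background on all of them. This is a description over arrays that share slides and groups, chosen as the highest of many values. For the P2X genes these included Nepro (0.886) and Slc30a4 (0.886) for P2rx2, and were Cplx1 (0.881), Usp25 (0.88) and Ankrd40 (0.872) for P2rx3 and Capns1 (0.965), Eef2 (0.961) and Eif3l (0.953) for P2rx4. For P2rx5 they were Gjc1 (0.952), Akap3 (0.944) and Zfp319 (0.937). The pattern of P2rx6 was closest to Fbxw2 (0.944), Isl2 (0.943) and Scn4b (0.937), of which Isl2 is a transcription factor of sensory neurons and Scn4b a sodium channel subunit. P2rx7 ran with Cdc20 (0.963), Tor1b (0.959) and Mtpn (0.958). Among the P2Y genes, P2ry1 was nearest to Pdgfa (0.968), C8h15orf61 (0.962) and Rfk (0.96), and P2ry2 to Sfi1 (0.968), Fam83f (0.954) and Aspa (0.95). P2ry12 was nearest to Map3k2 (0.941), Atxn3 (0.935) and Alg5 (0.914), and P2ry14 to Aldh2 (0.959), Ms4a6bl1 (0.927) and Plbd1 (0.915).

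On all 12 arrays limma called 0 of the 10 receptors in each comparison, while of all 20890 genes it called 0.0144% in old_AL against young_AL, 0% in old_CR against old_AL and 0.0144% where old_CR was set against young_AL. At an unadjusted p under 0.05 it counted 0, 1 and 1 of the receptors in the same order, and 6.84%, 6.18% and 2.78% of all genes. The signs of 3 age differences turned with old_AL 1 in the fit: P2rx3 was 0.30, P2rx5 −0.47 and P2rx7 −0.41.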

How the data were processed

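Per the labels' protocols, Cy3-labelled cRNA of L6 dorsal root ganglia was hybridised to one-colour Agilent arrays. Each deposited file gives linear spot intensities that the authors obtained with Agilent Feature Extraction 10.7, per the submitters' processing notes. Per the file headers, that software had subtracted background within the array to give the processed intensity, with no scaling between arrays. Other deposited columns, such as flags and probe names, were used to filter and name spots. The deposited table of the whole series differed from the processed intensity by at most 0.

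Control spots were left out and spots with an outlier flag set to missing. Log2 of the processed intensity minus the array's 75th percentile was averaged over the spots of a probe. Probes had to be well above background on at least 4 arrays, by the Feature Extraction flag on a share of 0.5 or more of their spots. The brightest probe stood for a gene. Of 30367 probes, 17998 matched a symbol in RefSeq's annotation of the assembly GRCr8. It served for names and gene order only, since the files name an older build, and the promoter windows come from the same assembly. The main test was limma (version 3.58.1, lmFit then eBayes with a mean for each group) on 11 arrays, run under R 4.3.3, with Benjamini-Hochberg adjustment over 20848 genes and a threshold of 0.05. Files were read with data.table, version 1.17.8. The number of arrays limits the precision. Each array came from its own file, and no 2 arrays were identical, with a highest correlation of 0.995. The 4 samples of a group are given as separate rats in the design text.

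All 10 receptors were named, with other purinergic genes that passed (at most 8 for each comparison), the other P2 receptors, and the 3 genes most like each receptor, of which 1 is not reported here. The members, the lists and the use of 11 arrays were chosen with earlier results of these data known. Replicate numbers, from the source names, are shared by the groups in the labels. Deviations of same-numbered arrays from their group means correlated between −0.089 and 0.086 over 10 pairs. Those of differently numbered arrays correlated between −0.13 and 0.102 over 30 pairs. The main test did not use these numbers as pairs, and such values cannot tell whether same-numbered rats were matched. A second numbering, in the titles, was not tried. The test was checked on simulated data. Alternatives were other scalings, background corrections, filters, probe summaries, fits, the replicate number as a block, all 12 arrays, and each array left out.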

Additional observations from a re-analysis of the deposited data

Results flagged for a closer look

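A gap test (Dixon's) compared the highest and the lowest array of each group of 4 with the rest of it, over 44 groups of the genes named here. The gap divided by the group's range exceeded Dixon's 95% critical value in 5 groups, and 4 of the 5 lay on old_AL 1. The groups share arrays, old_AL 1 was already known to differ, and Enpp2 was named from a fit without it. The rate of about 1 in 20 for independent groups is therefore no measure of chance for this count. For P2rx3 the ratio was 0.871, with old_AL 1 at 6.66 and the other old_AL arrays at 5.28 to 5.46. For P2rx6 it was 0.881, with old_AL 1 at −1.40 and the others at −0.73 to −0.64. For P2ry1 it was 0.842, with old_AL 1 at −2.47 and the others at −1.44 to −1.24. For Enpp2 it was 0.978, with old_AL 1 at −2.86 and the others at −0.89 to −0.84. The remaining group was P2ry4 in young_AL, with a ratio of 0.898, young_AL 4 at −8.18 and the others at −7.58 to −7.51, on a probe well above background on 2 of these 4 arrays.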

How the results depend on the processing

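The count of receptors called was 0 in each comparison and moved under these settings. In old_AL against young_AL it was 1 with median centring, 2 with normexp background correction (P2rx7 and P2ry14) and 1 with array weights. In old_CR against old_AL it was 1 with median centring, 1 with normexp (P2rx7) and 4 with array weights (P2rx6, P2rx7, P2ry1 and P2ry2). In old_CR against young_AL it was 1 with the filter of every array (probes well above background on all of them), 2 with the compared groups alone (P2rx7 and P2ry2), 2 with an intensity trend and 2 with array weights. The count of all genes called, which was 624 with age (old_AL and young_AL), 222 with diet (old_CR and old_AL) and 484 with both (old_CR and young_AL), in that order throughout, was 3, 0 and 3 on 12 arrays, 20, 1 and 21 with the replicate block, 27, 0 and 855 with the compared groups alone, 1080, 856 and 748 with an intensity trend and 1554, 2302 and 1914 with array weights. Quantile normalization gave 1283 with age and 639 with diet, median centring 2427 and 1464, and normexp 3797 and 4693. No filter on dim probes gave 123 with diet and 211 with both, and the filter of every array 343 with diet. Higher calls made up 61.9%, 24.3% and 32.4%, against 27.7%, 57.4% and 31.7% with quantile normalization, 14.8%, 84.7% and 29.1% with median centring, 86.3%, 10.6% and 36.1% with normexp, and 73.1%, 12.2% and 34.1% with no filter, so the balance of directions with age alone and with diet alone moved with these settings. The count of other purinergic genes called, which was 1, 0 and 2, was 0, 0 and 0 on 12 arrays and with the replicate block, 2, 1 and 4 with an intensity trend, 3, 5 and 7 with array weights, 4, 1 and 1 with median centring, 0 with age and 4 with both with the compared groups alone, 0 with age and 1 with both with no filter, and with age and diet 2 and 1 with quantile normalization and 7 and 7 with normexp. Leaving out each array gave 0 to 0, 0 to 1 and 0 to 1 receptors, 67 to 392, 1 to 931 and 40 to 875 genes and 0 to 1, 0 to 1 and 0 to 4 other purinergic genes. Signs turned in old_AL against young_AL on 12 arrays for P2rx3 (0.30), P2rx5 (−0.47), P2rx7 (−0.41) and Enpp2 (−0.23), with quantile normalization for P2rx5 (−0.055) and P2rx7 (−0.24), with normexp for P2rx4 (0.003), with the replicate block for P2rx3 (0.007) and P2rx4 (0.011), and with array weights for P2rx4 (0.035). They turned in old_CR against old_AL on 12 arrays for P2rx3 (−0.27), P2rx5 (0.59), P2rx7 (0.086), P2ry14 (0.17) and P2ry13 (0.034), with quantile normalization for P2rx5 (0.20), P2ry14 (0.32) and P2ry13 (0.195), with median centring for P2ry14 (0.028), with normexp for P2rx5 (0.001) and with array weights for P2rx5 (0.046). With an array left out, the differences in old_AL against young_AL ran from −0.053 to 0.037 for P2rx3, −0.072 to 0.075 for P2rx4, −0.059 to 0.001 for P2rx6 and −0.025 to 0.435 for P2rx7. In old_CR against old_AL they ran from −0.009 to 0.089 for P2rx3, −0.304 to 0.097 for P2rx5 and −0.122 to 0.036 for P2ry14, and in old_CR against young_AL from −0.029 to 0.069 for P2rx3. The replicate block changed no call of a receptor, and ended those of Enpp2 (adjusted p = 0.134 with age and 0.0891 with both) and Adora2b (0.112 with both). The causes were not tested. Over all settings, 898 differences of single genes kept sign and side of the threshold, 24 passed newly, 29 no longer passed and 33 changed sign. The dim probes of P2rx5, P2rx7 and P2ry14 limit what these arrays show of them.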
